A study of Mus musculus with 2 samples.

Results

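The genes described here encode the 4 CD3 signalling chains of the T cell receptor (Cd3g, Cd3d, Cd3e and Cd247) and the 3 coreceptor chains (Cd4, Cd8a and Cd8b1). They were chosen by gene name, with no filter on level, and are 7 of the 55536 GENCODE M21 genes that were quantified, of which 29305 had a read. The RNA came from inflammation-experienced regulatory T cells, primary cells of 1 male adult mouse of 6 months. The mouse strain, Foxp3CreERT2 x Rosa26YFP, joins a CreERT2 recombinase driven by the regulatory T cell gene Foxp3 to a YFP reporter at the Rosa26 locus. Its source label names a hematopoietic cell of the bone marrow as the origin, and neither the inflammatory treatment nor a sort is given in the labels. Polyadenylated RNA of this 1 biological replicate was sequenced as 2 technical libraries, cut by shearing to 100 to 300 bp, with 15386113 and 13604480 gene counts in technical replicates 1 and 2. There is no untreated, unlabelled or conventional T cell group, so levels could be described and no condition could be compared. Every SD below is over the technical libraries (n = 2) and every p-value measures only the difference between them, not between animals.

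The T cell receptor itself has almost no signalling tail. Its alpha and beta chains are carried to the surface with a CD3 gamma-epsilon dimer, a CD3 delta-epsilon dimer and a dimer of zeta chains from Cd247, whose cytoplasmic tyrosine motifs are phosphorylated by the kinase Lck and then bind Zap70. The coreceptors bring Lck to the receptor. CD4 binds MHC class II and marks helper and regulatory T cells, whereas CD8, either an alpha homodimer or an alpha-beta heterodimer, binds MHC class I and marks cytotoxic T cells. In the CD4 lineage the transcription factor gene Zbtb7b keeps the Cd8 genes low, and in the CD8 lineage Runx3 keeps Cd4 silent.

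The CD3 gamma, delta and epsilon genes are neighbours on mouse chromosome 9 (build mm10) and together span 40056 bp. Cd3g (chr9:44969572-44980431, minus strand) and Cd3d (chr9:44981786-44987339, plus strand) start head to head, 1355 bp apart. Cd3e (chr9:44998740-45009627, minus strand) ends 11401 bp from the end of Cd3d. Cd247 (chr1:165788681-165877277, plus strand) lies alone on chromosome 1. The CD8 genes lie side by side on chromosome 6, Cd8b1 at chr6:71322788-71337494 and Cd8a at chr6:71373427-71379173, both on the plus strand and 35933 bp apart. Cd4 is on the other strand of the same chromosome at chr6:124864692-124888221.

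The RefSeq table of promoters (GRCm38.p6) held 5 of these 7 genes. The 150 bases before each RefSeq start are shown because Cd3g and Cd3d leave 1 shared intergenic stretch in opposite directions, and because Cd3e and Cd247 serve the same receptor while Cd8a is the lowest of the 7 genes in these cells. Each is printed 5′ to 3′ on the strand of its gene. The capitals mark the E box letters CANNTG, the core bound by basic helix-loop-helix proteins such as the E proteins of lymphocytes. The windows are chr9:44980432-44980581 for Cd3g, chr9:44981636-44981785 for Cd3d, chr9:45009612-45009761 for Cd3e, chr1:165788531-165788680 for Cd247 and chr6:71373277-71373426 for Cd8a.
Cd3g: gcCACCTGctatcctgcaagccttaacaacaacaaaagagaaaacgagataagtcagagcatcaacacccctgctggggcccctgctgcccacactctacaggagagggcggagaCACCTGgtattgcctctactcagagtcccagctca
Cd3d: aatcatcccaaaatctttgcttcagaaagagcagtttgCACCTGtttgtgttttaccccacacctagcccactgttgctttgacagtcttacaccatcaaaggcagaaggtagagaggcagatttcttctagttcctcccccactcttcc
Cd3e: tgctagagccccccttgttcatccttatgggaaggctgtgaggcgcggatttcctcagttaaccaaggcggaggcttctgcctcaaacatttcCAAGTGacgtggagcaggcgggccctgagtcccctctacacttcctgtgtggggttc
Cd247: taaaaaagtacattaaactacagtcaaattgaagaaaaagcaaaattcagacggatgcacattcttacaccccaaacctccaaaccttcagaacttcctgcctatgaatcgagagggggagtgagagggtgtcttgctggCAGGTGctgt
Cd8a: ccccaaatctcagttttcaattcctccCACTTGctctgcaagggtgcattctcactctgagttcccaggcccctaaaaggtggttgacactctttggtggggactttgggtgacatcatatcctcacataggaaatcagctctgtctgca
All 5 windows of 300 bases (250 before the start and 50 after it) held an E box, as did 72.3% of the 32817 promoters in the table. Positions count from -1 for the base just before the start and name the first base of a match. The match of Cd3d stood at -112, and the one nearest the start of Cd247 at -10. The ETS letters GGAAGT were found for Cd247, Cd3d and Cd3e, against 23.8% of all promoters, at -199 for Cd3d and -18 for Cd3e. The TCF and LEF letters CTTTGA were found for Cd3d and Cd247 (16.0% of all promoters), with the matches of Cd3d at -73 and -54, and the GATA letters AGATAA for Cd3g at -104 (11.2%). Neither the RUNX letters TGTGGT (16.8%) nor the TATA letters TATAAA (13.6%) were found in any of the 5 windows. Both strands were searched for each motif, no match overlapped a match of another motif in these windows, and a match is a run of letters, not a measured binding site.

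All 7 genes were at 1 TPM or more in both libraries, which 46.1% of the genes with a read reached. Their levels fell into 2 ranges. The CD3 chains and Cd4 stood between 238 and 1164 TPM, and the CD8 chains between 2.35 and 11.4 TPM. The median level of the 7 genes was 323 TPM, against 0.995 TPM over all genes with a read. The RNA is a bulk sample, in which fewer cells of a type and less RNA per cell cannot be told apart.

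**Figure D1:**
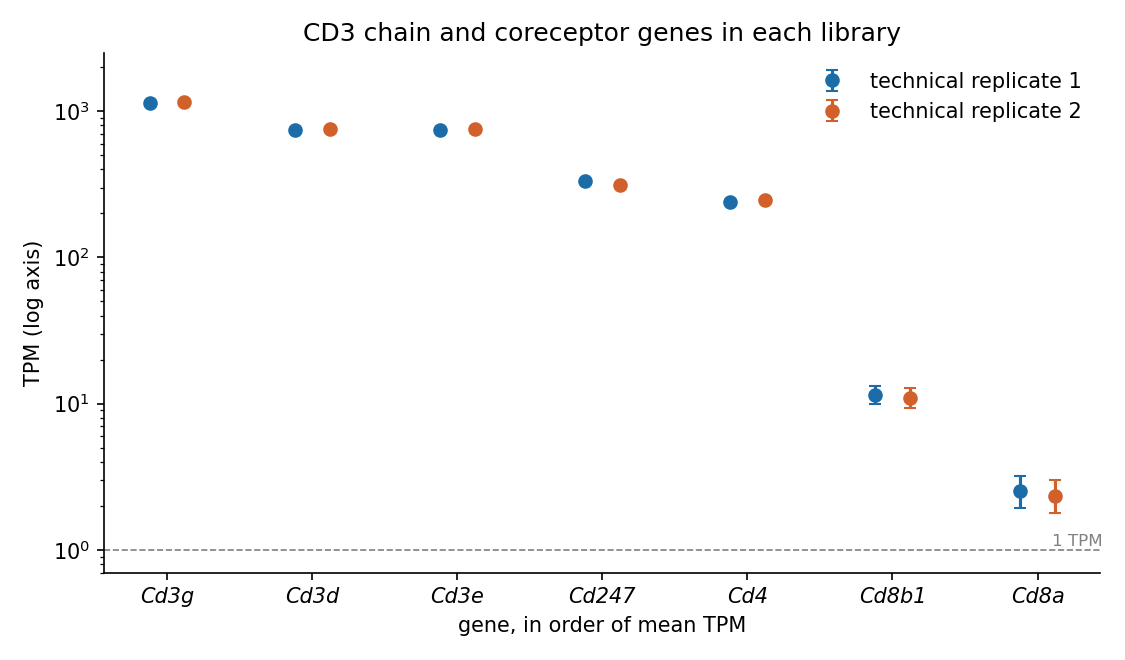
Level of each gene in TPM (log axis) in technical replicates 1 and 2, in order of the mean, with exact 95% Poisson intervals that are smaller than the points for the 5 higher genes. The CD3 chains and Cd4 sit between 238 and 1164 TPM, Cd8b1 near 11 TPM and Cd8a below 3 TPM.

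Among the chains that signal, Cd3g was the highest. The CD3 gamma gene stood at 1144 and 1164 TPM in technical replicates 1 and 2 (1154 ± 14.3, SD, n = 2), from 13029 and 11871 estimated counts. It ranked 133 of the 29305 genes with a read. Cd3d, which encodes the delta chain, stood at 749 and 760.1 TPM (754.7 ± 7.57) and ranked 193. Cd3e, whose epsilon chain pairs with both gamma and delta, stood at 741 and 755.6 TPM (748.5 ± 10) and ranked 195. Cd3g lay above both in each library, with a ratio of 1.53 to Cd3d in each and of 1.54 to Cd3e in each, and the libraries differed by far less than the genes did. Cd3d and Cd3e were not told apart. Their Poisson intervals overlapped in each library (734 to 765 against 729 to 755 TPM in technical replicate 1), and their ratio was 1.01 in both libraries (0.984 to 1.04 and 0.978 to 1.03). These intervals allow for counting error alone, because the reads carry no molecular identifiers and copies of 1 molecule may be counted apart.

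Cd247, the zeta chain gene, was the lowest of the 4 CD3 chain genes. It stood at 331 and 315 TPM (323.3 ± 11.4) from 6323 and 5251 estimated counts and ranked 417. Cd3g exceeded it 3.45 and 3.69 times and Cd3e 2.24 and 2.40 times. As shares of the summed TPM of the 4 chains, Cd3g took 38.7% ± 0.21, Cd3d 25.3% ± 0.080, Cd3e 25.1% ± 0.16 and Cd247 10.8% ± 0.46. By estimated counts, which are not scaled by length, the shares were 31.8% for Cd3g, 30.9% for Cd3e, 22.6% for Cd3d and 14.7% for Cd247. The order of Cd3d and Cd3e thus differed between these scales.

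The 4 CD3 chain genes summed to 2966 and 2995 TPM. The alpha chain constant gene Trac stood at 3032 and 2964 TPM, so the sum over 4 chains was close to the level of this 1 chain gene. The beta chain constant genes Trbc2 (3803 and 3725 TPM) and Trbc1 (2017 and 1949 TPM) added up to 5820 and 5674 TPM. Relative to Trac, Cd3g reached 0.377 and 0.393, Cd3e 0.245 and 0.255, Cd3d 0.247 and 0.256, and Cd247 0.109 and 0.106. Levels of mRNA per gene do not give the number of chains in a receptor, and protein was not measured.

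Of the coreceptor genes, Cd4 was the highest and the nearest to the CD3 chain genes, though by TPM it lay below each of them. It stood at 238 and 247 TPM (242.4 ± 6.65) from 8219 and 7471 estimated counts and ranked 558. Cd247 exceeded it 1.39 times in technical replicate 1 (interval 1.35 to 1.44) and 1.28 times in technical replicate 2 (1.23 to 1.32). In the smaller gene table, a separate count of the same libraries, the order of this pair was the opposite. Divided by gene lengths from the larger table, its counts per kilobase were 654 and 636 for Cd4 and 583 and 552 for Cd247. Relative to its share of counts in the larger table, Cd4 stood at 0.879 and 0.898 and Cd247 at 0.570 and 0.619. The kinase gene Lck, whose product binds the CD4 tail, stood at 1287 and 1169 TPM, 5.41 and 4.73 times the level of Cd4.

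The CD8 genes were low and unequal. Cd8b1, the beta chain gene, stood at 11.4 and 11.0 TPM (11.2 ± 0.30) from 204 and 173 counts and ranked 7353. Cd8a, the alpha chain gene, stood at 2.52 and 2.35 TPM (2.435 ± 0.12) from 66 and 61 counts and ranked 11819. The Poisson intervals were 9.93 to 13.1 and 9.41 to 12.8 TPM for Cd8b1, and 1.95 to 3.21 and 1.80 to 3.02 TPM for Cd8a, so the genes did not overlap. Cd8b1 exceeded Cd8a 4.54 times (3.42 to 6.09) and 4.69 times (3.48 to 6.39), although the alpha chain is the one that can form a coreceptor without the other. By estimated counts the ratio of Cd8a to Cd8b1 was 0.338 in place of 0.217 by TPM, and between the full coding transcripts alone it was 0.0393 and 0.0835 in technical replicates 1 and 2. Cd8b1 was the higher gene on each of these scales.

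Cd4 exceeded Cd8a 94.3 times in technical replicate 1 (74.1 to 122) and 105 times in technical replicate 2 (81.8 to 138). It exceeded Cd8b1 20.8 and 22.4 times. The ratio of Cd4 to Cd8a depended on which transcripts were compared. It was 124 by estimated counts and 86.6 by the smaller table, but between the full-length coding transcripts alone it was 459 and 230, since most of the Cd8a level was assigned to a transcript that keeps an intron.

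The transcript tables divided the 7 genes into 28 annotated transcripts, of which 15 held at least 5% of their gene's TPM in a library. In 6 genes the first-numbered transcript, a full coding transcript, led, and Cd8a was the exception. Cd3g-201 held 86.5% and 88.6% of the gene's TPM (989 and 1031 TPM), Cd3e-201 80.2% and 81.9% (594 and 619 TPM), Cd4-201 86.9% and 85.6% (207 and 212 TPM) and Cd247-201 90.3% and 87.8% (299 and 277 TPM). Cd8b1 has 1 annotated transcript, which held all of its reads. When the first-numbered transcripts were set side by side, Cd3e (594 and 619 TPM) stood above Cd3d (423 and 443 TPM), with a ratio of Cd3d to Cd3e of 0.713 and 0.717. The near equality of Cd3d and Cd3e at the gene level therefore included the short transcripts of Cd3d.

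**Figure D2:**
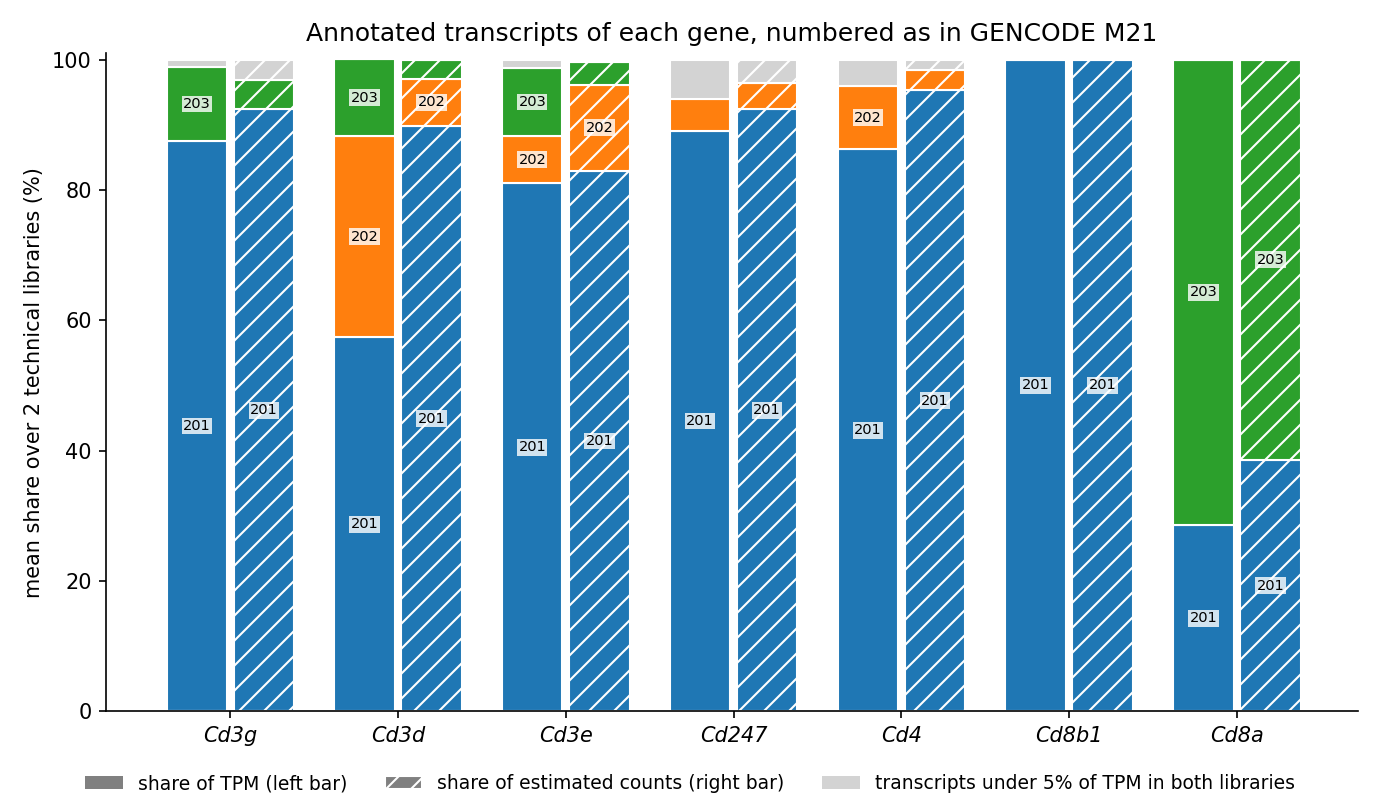
Mean share of each annotated transcript over the technical libraries, as a percent of the gene's TPM (left bars) and of its estimated counts (right, hatched bars), with numbers giving the transcript suffix. Short Cd3d transcripts take much of the TPM but few of the counts. Cd8a-203 leads Cd8a on both scales in the mean, but not by counts in technical replicate 2.

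The zeta chain gene has another known product, eta, made with another last coding exon. Cd247-201, the zeta transcript, has 492 coding nt, and Cd247-202, with 618 coding nt, ends in the eta exon. They share 7 coding exons and differ in the last, with 63 coding nt in zeta and 189 in eta. The eta part begins 4589 bp after the end of the whole last zeta exon, which runs on past its coding part. The sequences below, from GENCODE M21 transcripts on the plus strand of mm10, show the split. The lower-case letters are the last 36 shared coding bases, which begin at chr1 position 165859789, and the capitals are the 63 bases that follow in each transcript, at chr1:165861004-165861066 in Cd247-201 and chr1:165866655-165866717 in Cd247-202.
Cd247-201: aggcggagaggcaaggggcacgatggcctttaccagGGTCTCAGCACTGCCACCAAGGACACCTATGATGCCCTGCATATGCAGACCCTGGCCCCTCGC
Cd247-202: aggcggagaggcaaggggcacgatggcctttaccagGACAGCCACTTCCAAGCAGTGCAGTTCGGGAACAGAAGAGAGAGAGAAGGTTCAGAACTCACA
The zeta transcript held 299 and 277 TPM and the eta transcript 14.5 and 16.8 TPM, which is 4.38% and 5.34% of the gene. In estimated counts these were 5888 and 4808 for zeta against 229 and 234 for eta. Eta was therefore the minor form in both libraries. Of the exon bases of Cd247-202, 782 lie over exons of the gene Pou2f1 on the opposite strand (35.5 and 37.0 TPM), and Cd247-201 shares none with it. The strand setting is not given in the sources used here, so reads of Pou2f1 may be included in eta, and their part was not tested. Another 2 annotated Cd247 transcripts were listed at 0 in both libraries.

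Cd3g-203 is a short coding transcript (412 nt) that skips an exon of 24 nt, a whole number of codons. It is annotated with 3 exons and 301 coding nt, against 7 exons and 546 coding nt in Cd3g-201. Its share is that of this shorter annotated transcript, and the share of all Cd3g mRNA that skips the exon was not measured. Cd3g-203 held 12.3% and 10.3% of the Cd3g TPM but 637 and 477 of the counts, or 4.89% and 4.02%. The sequences run 5′ to 3′ on the minus strand of chromosome 9, between positions 44980295 and 44974375. In Cd3g-201 the capitals mark the small exon (chr9:44975247-44975270), and in Cd3g-203 they mark the exon that follows directly in its place (from chr9:44974375-44974390).
Cd3g-201: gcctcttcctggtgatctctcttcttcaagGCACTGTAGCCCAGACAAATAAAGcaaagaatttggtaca
Cd3g-203: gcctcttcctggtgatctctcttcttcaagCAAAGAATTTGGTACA

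The Cd3d gene showed the widest gap between TPM and counts. Cd3d-202, of 286 nt, held 33.3% and 28.3% of the Cd3d TPM (250 and 215 TPM), but 735 and 560 estimated counts, which is 7.97% and 6.61% of the gene's counts. Cd3d-201, of 1617 nt, held 56.5% and 58.4% of the TPM and 89.5% and 90.1% of the counts. A retained-intron transcript of 299 nt, Cd3d-203, took 10.2% and 13.3% of the TPM. Cd3d-202 begins in a first exon of its own of 93 nt (chr9:44985823-44985915), shown in capitals, and goes on into an exon that it shares with Cd3d-201, in lower case.
Cd3d-202: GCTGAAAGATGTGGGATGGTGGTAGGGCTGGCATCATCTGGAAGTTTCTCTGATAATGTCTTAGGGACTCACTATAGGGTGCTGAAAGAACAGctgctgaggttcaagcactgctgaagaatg
Transcripts of this length are no longer than the largest of the sheared fragments (300 bp). TPM divides counts by an effective length somewhat below the full length, such as 1434 of 1483 nt for Cd8b1. A short transcript thus reaches a high TPM from few counts. The Cd3d level of 749 and 760.1 TPM therefore rests in part on the reads assigned to these short transcripts.

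Retained-intron transcripts of Cd3e took 147 and 137 TPM, or 19.8% and 18.1% of the gene. Most of their counts were on Cd3e-202 (2550 nt), with 1765 and 1430 counts, or 13.9% and 12.5% of Cd3e. Cd3e-201 shares 135 exon bases with the antisense gene Gm48719, which stood at 8.13 and 4.68 TPM, far below Cd3e. For Cd4 the retained-intron transcript Cd4-202 held 9.54% and 9.82% of the TPM, and Cd4-201 95.5% and 95.1% of the counts.

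In Cd8a the leading transcript was Cd8a-203, which keeps intron 1 (505 nt) and is annotated with no coding sequence. It held 82.2% of the gene's TPM in technical replicate 1 and 60.7% in technical replicate 2. The coding Cd8a-201 held 17.8% and 39.3%, at 0.45 and 0.92 TPM, and the other coding transcript, Cd8a-202, was listed at 0 in both. The reads behind these shares were few. They were 48.9 and 29.8 estimated counts for Cd8a-203 against 17.1 and 31.2 for Cd8a-201, so by counts Cd8a-203 held 74.0% (exact binomial interval 62.0 to 84.2) and 48.8% (36.1 to 62.3). In technical replicate 2 the transcripts were not told apart by counts. The sequences show the last 30 bases of exon 1, in lower case from chr6 position 71373968, followed in capitals by exon 2 in Cd8a-201 (chr6:71374503-71374542) and by the kept intron in Cd8a-203 (chr6:71373998-71374037).
Cd8a-201: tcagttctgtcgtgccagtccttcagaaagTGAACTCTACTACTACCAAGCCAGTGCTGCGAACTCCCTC
Cd8a-203: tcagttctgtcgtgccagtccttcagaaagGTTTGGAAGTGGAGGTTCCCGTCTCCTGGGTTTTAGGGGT

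To measure how well the levels repeat, the technical libraries were compared gene by gene with a two-sided exact binomial test on rounded estimated counts, scaled by TMM effective library sizes and adjusted by Benjamini-Hochberg over 17334 genes. Of the 7 genes 1 was called, Cd247, lower in technical replicate 2, and 0 were called higher. Over all genes tested 19.2% were called, 9.42% higher and 9.78% lower in technical replicate 2, so the count among the 7 genes is near this share. Calls were more frequent among deeply sequenced genes, at 45.1% of the 435 genes with at least 10000 counts summed. The CD3 chain genes and Cd4 all have this depth, and of them Cd247 alone was called. Cd247 had a log2 ratio of -0.092 (95% interval -0.14 to -0.039, adjusted p = 0.0069 in the exact binomial test). Without adjustment, 3 of the 7 genes had a p under 0.05 in this test. The share of all genes under that unadjusted threshold was not taken, so this count is not read as a result.

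The other CD3 chain genes were slightly higher in technical replicate 2, with log2 ratios of 0.054 for Cd3d, 0.026 for Cd3e and 0.042 for Cd3g (adjusted p = 0.063, 0.37 and 0.091 in the exact binomial test). For Cd4 the ratio was 0.039 (adjusted p = 0.25), for Cd8b1 -0.061 (0.87) and for Cd8a 0.063 (0.95), by the same exact test. The sign for Cd8a was the opposite by TPM, at -0.071. With a dispersion common to all genes fitted by edgeR, 0 of the 7 genes were called, against 1.8% of all genes tested, and the adjusted p was 1 for each of the 7. In the smaller table the exact binomial test called 0 of the 7 genes, against 6.57% of 11051 genes, and the ratio of Cd247 was 0.037 (adjusted p = 0.84), the opposite sign. The difference called for Cd247 thus rested on the larger table and on the assumption that only read sampling separates the libraries. Within Cd247 the zeta transcript went from 5888 to 4808 counts and the eta transcript from 229 to 234 before any scaling.

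**Figure D3:**
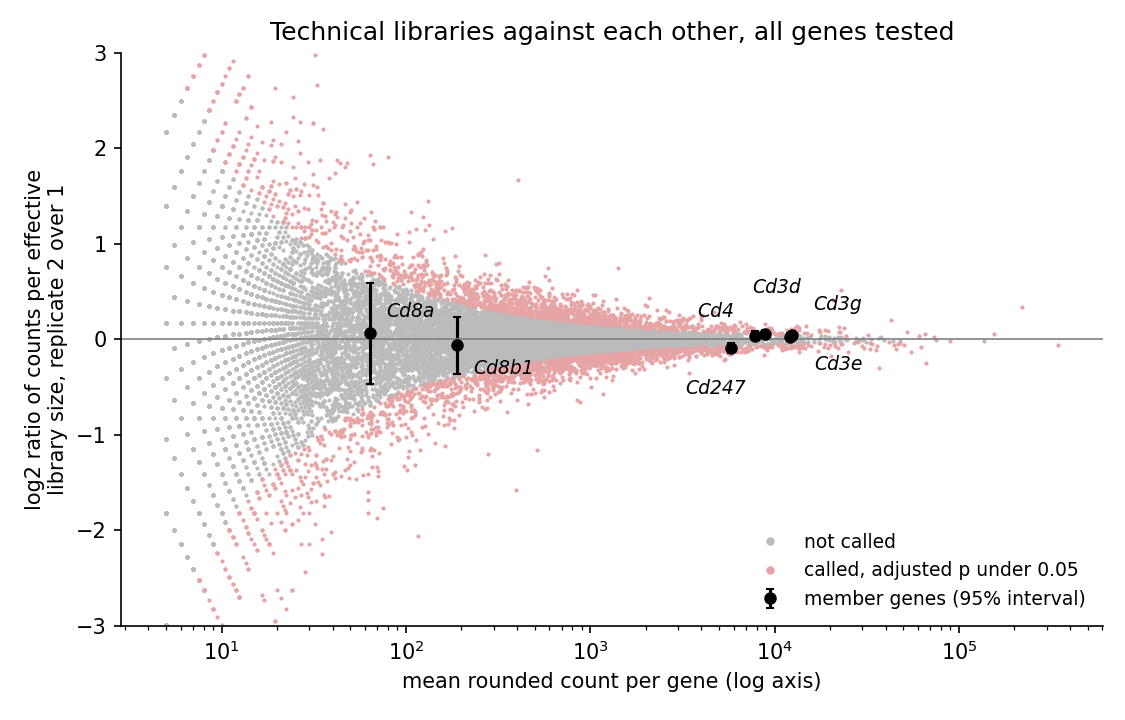
Log2 ratio of counts per effective library size, technical replicate 2 over 1, against the mean rounded count (log axis) for 17334 genes, with the 7 genes in black and their 95% intervals; ratios beyond 3 in size are not drawn. Cd247 sits at -0.092 and is the one called of the 7, while the intervals of Cd8a and Cd8b1 are wide because their counts are low.

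All 7 genes were also counted, in whole reads, in the smaller gene table, at 1156 and 1159 for Cd3d, 1226 and 1195 for Cd3e, 1248 and 1237 for Cd3g, 924 and 865 for Cd247, 1853 and 1784 for Cd4, 21 and 21 for Cd8a, and 106 and 75 for Cd8b1. As a share of all counts in genes found in both tables, Cd3g stood at 0.374 and 0.392 of its share in the larger table and Cd3e at 0.376 and 0.392. Cd4 stood at 0.879 and 0.898 of its share, and Cd8b1 at 2.03 and 1.63 times it. Genes outside the 7 differed with their level too. The 284 genes with 5000 to 20000 counts in the larger table had a median of 0.578 and 0.610, and the 5583 genes with 100 to 1000 counts one of 1.67 and 1.65. The Cd4 to Cd8a ratio of counts was 88.2 and 85.0 in the smaller table, against 125 and 122 in the larger.

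The partners of these chains in receptor signalling were expressed together with them. All 26 genes of a list of receptor constant chains and receptor-proximal signalling proteins reached 1 TPM in each library, and their median was 193 TPM. The highest were Trbc2, Trac and Trbc1, then Lck and the adhesion receptor gene Cd2 (1112 and 1078 TPM). The lowest were Grb2, an adaptor gene (26.4 and 26.5 TPM), Cbl, a ubiquitin ligase gene that acts on activated receptors (13.3 and 14.9 TPM), and Pag1, the gene of an adaptor for the inhibitory kinase Csk (13.4 and 12.7 TPM). Between the technical libraries, 3 of the 26 were called higher and 7 lower in technical replicate 2, against 9.42% and 9.78% of all genes tested and 45.1% in either direction of genes with at least 10000 counts summed. Lck was one of the latter, with a log2 ratio of -0.13 (adjusted p = 2.8e-21, exact binomial test), a call that was lost with the dispersion fitted by edgeR (adjusted p = 1).

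Transcription factor genes known to set or keep the choice between CD4 and CD8 were also present, all 14 of them, with a median of 33.6 TPM. The highest were Ets1 (631 and 587 TPM), Tcf7 (297 and 295 TPM), Tox (138 and 152 TPM), Lef1 (145 and 136 TPM) and Gata3 (101 and 116 TPM). The lowest were Myb (4.98 and 5.56 TPM), Zbtb7b and Runx3. Zbtb7b, the CD4 lineage factor, stood at 8.5 and 10.3 TPM, and Runx3, the CD8 lineage factor, at 8.27 and 11.9 TPM, so neither exceeded the other in both libraries. Between the technical libraries 4 of the 14 were called higher and 3 lower in technical replicate 2, against 9.42% and 9.78% of all genes tested. Both Runx3 (log2 ratio 0.49, adjusted p = 2.3e-05) and Zbtb7b (0.40, adjusted p = 0.0023) were called higher by the exact binomial test, and neither by edgeR.

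Markers of the labelled cell type were present. All 8 regulatory T cell genes on the list used reached 1 TPM in each library, and their median was 374 TPM. The folate receptor family gene Izumo1r (1061 and 1040 TPM), Tnfrsf4 (508 and 492 TPM) and Tnfrsf18 (475 and 438 TPM) were the highest. Foxp3 was the lowest, at 22.1 and 17.9 TPM. Of these 8 genes 0 were called higher and 4 lower in technical replicate 2 by the exact binomial test, against 9.42% and 9.78% of all genes tested. Most of the 8 have at least 10000 counts summed, a class in which 45.1% were called in either direction. The edgeR test called 0 of them.

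Other cells that could add to the CD3 or coreceptor RNA were looked at through their markers. Of 12 CD8 and cytotoxic T cell genes, 6 were at 1 TPM or more in both libraries and they summed to 315 and 310 TPM, most of it from the chemokine gene Ccl5 (191 and 182 TPM) and Nkg7 (98.7 and 99.3 TPM), then the granzyme gene Gzmb (14.8 and 17.1 TPM). Eomes, Gzmm, Klrd1, Klrk1, Gzma and Klrc1 were each under 1 TPM in both libraries. No gene of this list was at 0 in both, and 0 of the 9 tested were called in either direction, against 19.2% of all genes tested. Of 13 dendritic cell genes, a cell type of which some members carry CD8 alpha or CD4, 4 were detected and the sum was 24.9 and 17.3 TPM. The MHC class II genes H2-Eb1 (11.2 and 6.99 TPM) and H2-Aa (6.96 and 3.55 TPM) and the factor gene Zbtb46 (2.77 and 3.36 TPM) were highest. Xcr1, Siglech, Clec9a, Sirpa, Batf3 and Flt3 were each under 1 TPM in both libraries, and Itgax, Clec4a4 and Cd209a were at 0 in both. Of the 5 dendritic cell genes with enough counts to test, 2 were called lower in technical replicate 2, against 9.78% of all genes tested. The part of these cells in the levels of Cd8a, Cd8b1 and Cd4 was not tested.

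Gamma delta T cells carry the same CD3 chains. Of their 6 marker genes 4 were detected, with a sum of 39.2 and 31.9 TPM. Tcrg-C1 (24.9 and 18.7 TPM), Tcrg-C2 (9.38 and 5.82 TPM) and Tcrg-C4 (2.75 and 5.74 TPM) were highest, the delta constant gene Trdc stood at 1.76 and 1.55 TPM, and Sox13 was at 0 in both. Of the 5 that could be tested 1 was called higher and 2 lower in technical replicate 2, against 9.42% and 9.78% of all genes tested. NK cells use the zeta chain without the other CD3 chains. Of 8 NK genes 0 reached 1 TPM in both libraries, the sum was 1.88 and 2.92 TPM, and Ncr1, Klre1 and Klra8 were at 0 in both, against 331 and 315 TPM for Cd247. The highest were Tyrobp (0.59 and 1.06 TPM), Khdc1a (0.53 and 0.89 TPM) and Klrb1c (0.50 and 0.89 TPM), and 0 of the 3 tested were called, against 19.2% of all genes tested.

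Markers of cell types that lack the CD3 chains were also summed. Of 7 B cell genes 2 were detected, with a sum of 142 and 66.5 TPM that was mostly the light chain gene Igkc (102 and 34.3 TPM) and Cd79b (36.6 and 29.7 TPM), followed by Cd79a (1.66 and 0.88 TPM). None was at 0 in both libraries, and 2 of the 6 tested were called lower in technical replicate 2, against 9.78% of all genes tested. These were Igkc and Cd79b. The edgeR exact test with a common dispersion also called Igkc (log2 ratio -1.58, adjusted p = 1.7e-07), but not Cd79b. Of 7 monocyte and macrophage genes 1 was detected, the sum was 5.60 and 3.58 TPM, and Adgre1 and Cd14 were at 0 in both. Cd68 (3.35 and 2.72 TPM), Lyz2 (0.76 and 0.68 TPM) and C1qb (1.32 and 0 TPM) were highest there, and 1 of the 3 tested was called lower, against 9.78% of all genes tested. This gene, C1qb, was also called by the edgeR exact test (adjusted p = 0.0074), from 17 and 0 counts. The B cell sum was lower in technical replicate 2 while the CD3 sum was 2966 and 2995 TPM, and the part of B cell RNA in the CD3 levels was not tested.

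**Figure D4:**
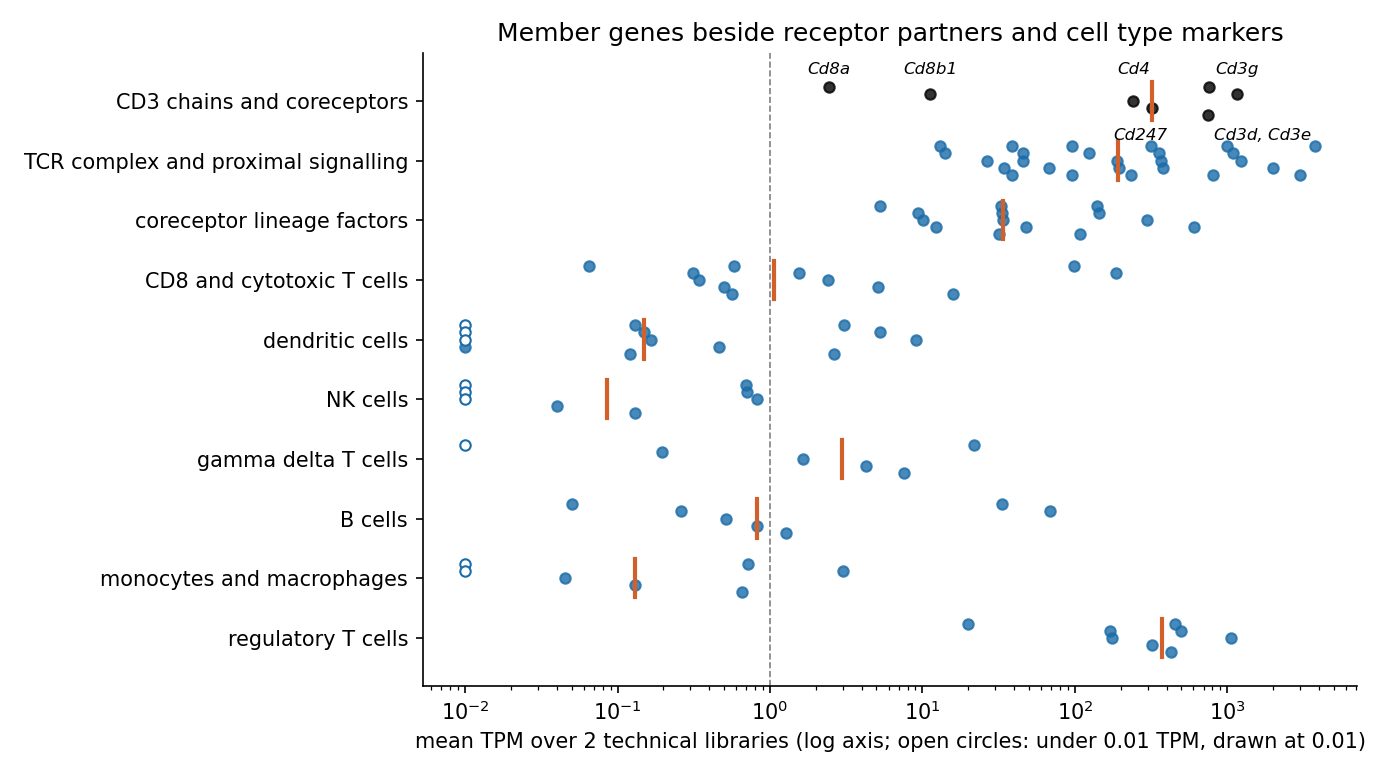
Mean TPM over the technical libraries (log axis) of the 7 genes (black, named) and of each gene on 9 lists (blue), with the median of each list as a vertical bar and 1 TPM as a dashed line; open circles are genes under 0.01 TPM. The marker lists span wide ranges. Cd8a and Cd8b1 fall within those of the cytotoxic, gamma delta T cell and B cell markers, and Cd8a also within those of the dendritic cell and monocyte markers. The CD3 chains and Cd4 fall within the range of the receptor signalling genes.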

How the data were processed

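Values of both libraries are given as technical replicate 1, then technical replicate 2. For each library the authors deposited, per the file headers, a larger gene table with estimated counts, TPM and FPKM, its credibility bounds of TPM (signal values, not used for a result here), and a transcript table with the percent of a gene's TPM per transcript. These cover GENCODE M21 genes on mm10 plus transfer RNA, spike-in and phage entries. A smaller deposited table holds whole-number counts over GENCODE M4 genes, made by the authors from reads aligned to the genome, according to the notes deposited beside it. The aligner, the quantifier, their versions and the strand setting are not given in the sources used here. Counts without a gene (0.174% and 0.158%) stayed out of library sizes and tests.

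The 7 genes and 9 gene lists were chosen with earlier results of these data known. Detection meant at least 1 TPM in each library. Of the receptor list the constant genes, the 5 highest and the 3 lowest genes were named. Of the lineage factors the 5 highest and the 3 lowest were named, with Zbtb7b and Runx3, and of each marker list the 3 highest and every gene at 0. Beyond this rule Trdc was named, as was every gene under 1 TPM in both libraries on the cytotoxic and dendritic cell lists. With 2 libraries there is no pattern to match, so ranks by mean TPM replace a search for genes of like pattern. Each gene with a sum of at least 10 rounded estimated counts was tested by a two-sided exact binomial test, with effective sizes from TMM in edgeR 4.0.16. The p-values were adjusted by Benjamini-Hochberg with a threshold of 0.05. The test was also run on simulated Poisson counts. These carry read sampling alone, so they cannot show whether the test holds for these libraries. Alternatives were total sizes, DESeq2 1.42.0 size factors, no minimum count, the edgeR exact test with a common dispersion fitted to an intercept only, and the smaller table. Intervals are 95% exact Poisson intervals for levels and exact binomial (Clopper-Pearson) intervals for shares and ratios. Log2 ratios of TPM used a pseudocount of 1 TPM. A gene at 0 may hold up to 3 counts, or 0.195 and 0.221 CPM. Transcript sequences came from GENCODE M21 transcripts and promoters from RefSeq. Python 3.11.15 with scipy 1.17.1 and R 4.3.3 were used.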

Additional observations from a re-analysis of the deposited data

How the results depend on the processing

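The count of the 7 genes called between the technical libraries stayed at 1 with total library sizes, DESeq2 size factors or no minimum count, and was 0 with the edgeR common dispersion and 0 in the smaller table. Over all genes 3328 were called, 3316, 3374 and 2802 under the first 3 of these alternatives, 312 with edgeR and 726 in the smaller table. The edgeR dispersion was fitted to the libraries it compares, which lowers its calls by construction, and the smaller table holds fewer counts. The order of the levels was the same in FPKM, in posterior mean TPM and in each library alone. It had 2 genes out of place by smaller-table counts per kilobase (Cd4 above Cd247) and 2 out of place by the first-numbered transcripts, an alternative chosen after seeing the data (Cd3e above Cd3d).

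The mean ratio of Cd4 to Cd8a, 99.7 by TPM, was 123.5 by estimated counts, 86.6 in the smaller table, 344.5 between the first-numbered transcripts (chosen after seeing the data) and 94.3 to 105.1 with a library left out. The ratio of Cd8a to Cd8b1, 0.217 by TPM, was 0.338 by estimated counts, 0.224 by posterior mean TPM, 0.239 in the smaller table, 0.0614 between the first-numbered transcripts (chosen after seeing the data) and 0.213 to 0.220 with a library left out. Estimated counts are not scaled by length as TPM is. The first-numbered transcripts leave out every other transcript, such as the one of Cd8a that keeps an intron. The cause of the differences in the smaller table and by posterior mean TPM was not tested. Posterior mean TPM lay 8.21% to 11.7% below TPM for the 7 genes. Of 21 alternatives for their log2 ratios 1 changed sign, that of Cd8a by counts (0.063 against -0.071 by TPM), and Cd8a was not called. Of 103 alternatives for single genes or lists, 79 were classed as the same and 24 as moved or changed. The log2 ratios and the list counts have no SD, so no spread was at hand for them. All 21 for log2 ratios, the sign change of Cd8a among them, were classed as the same. For Cd8a, at 66 and 61 counts, depth limits the level and its transcript shares. No paired analysis was possible because there is 1 group of samples.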
